A study of Homo sapiens with 9 samples.

Results

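Polycomb group genes were followed in Shef3, H14 and Shef1, 3 established lines of human embryonic stem cells (hESCs), before and after 14 days of culture meant to yield otic progenitors, which build the inner ear. The genes were EZH1, EZH2, EED, SUZ12, JARID2, CBX2, CBX6, CBX7 and CBX8, and all probe sets that the platform annotation assigns to a single one of them were taken. A probe set is the group of short probes by which the array reads a transcript. In all 21 probe sets of 8 genes were found, of 41091 probe sets and 19775 genes with a single symbol on the array. CBX8 had no probe set under this rule and was not analysed here, and 1 SUZ12 probe set that also names the pseudogene SUZ12P1 was left out. The main probe set of a gene is the one that averaged highest over the 9 arrays.

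Per the labels, the hESC group was taken at day 0 from cultures on mouse embryonic feeder cells with 4 ng/ml basic FGF. The DFNB group was replated on laminin and kept until day 14 in DFNB, a defined medium supplemented with N2 and B27. The FGF3+10 group had the same medium and time, with FGF3 and FGF10 added at 50 ng/ml each. Each group held 3 arrays, 1 per line, so lines contribute to the spread of every group. The feeders and basic FGF were part of the hESC group only and cannot be told apart from the day of sampling. The labels do not say whether cultures of a line were separate, and p-values measure only the spread between these 9 arrays.

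Polycomb proteins keep genes silent through marks on histones. Polycomb repressive complex 2 (PRC2) places methyl groups on lysine 27 of histone H3 (H3K27) through EZH1 or EZH2, which work only together with EED and SUZ12. JARID2 is an accessory protein that helps to bring PRC2 to its sites and is abundant in pluripotent cells. CBX2, CBX6, CBX7 and CBX8 read the methyl mark as subunits of PRC1, the complex that compacts chromatin and marks histone H2A. In pluripotent cells these complexes hold many developmental regulators silent, and the CBX subunit in use is known to differ between stem cells and their progeny.

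Levels were deposited as logarithms without a stated base and are read as log2 units. Every array has a median of 3.20, and levels of different probe sets are not compared with each other. The mean level of 10 pluripotency markers lay between 9.15 and 10.84 on the hESC arrays. At day 14 the markers averaged 3.47, 7.28 and 8.53 in DFNB and 3.43, 8.80 and 8.69 in FGF3+10, in the order Shef3, H14, Shef1. A few markers carry these means. ZFP42 read -0.48, -0.81 and -0.92 on the Shef1 arrays and at least 6.10 on all others, and NANOG read -10.17 and -7.62 in Shef3 at day 14. Without ZFP42, and with values below 4 set to 4, the hESC arrays lay at 10.88, 10.48 and 10.22 in the same order. The DFNB arrays then lay at 5.86, 7.53 and 9.56 and the FGF3+10 arrays at 5.72, 8.93 and 9.76. On this scale all day 14 arrays lay below all hESC arrays, with Shef1 nearest to them and Shef3 farthest. The mean of 11 neural progenitor markers was 3.75 to 4.76 in hESC and 5.23 to 8.28 at day 14, and that of 7 endoderm markers 7.15 to 8.74 and 3.19 to 5.13. Bacterial poly-A spike-in transcripts stood at 7.43 to 7.50 on the Shef1 arrays and at 5.04 to 5.72 on all others. The ACTB 3' minus 5' signal was also highest in Shef1, at 0.54 to 0.69 against 0.08 to 0.52, and the upper quartile lowest, at 6.02 to 6.09 against 6.18 to 6.46. The GAPDH 3' minus 5' signal did not set Shef1 apart, at 0.18 to 0.23 against 0.14 to 0.53.

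**Figure D1:**
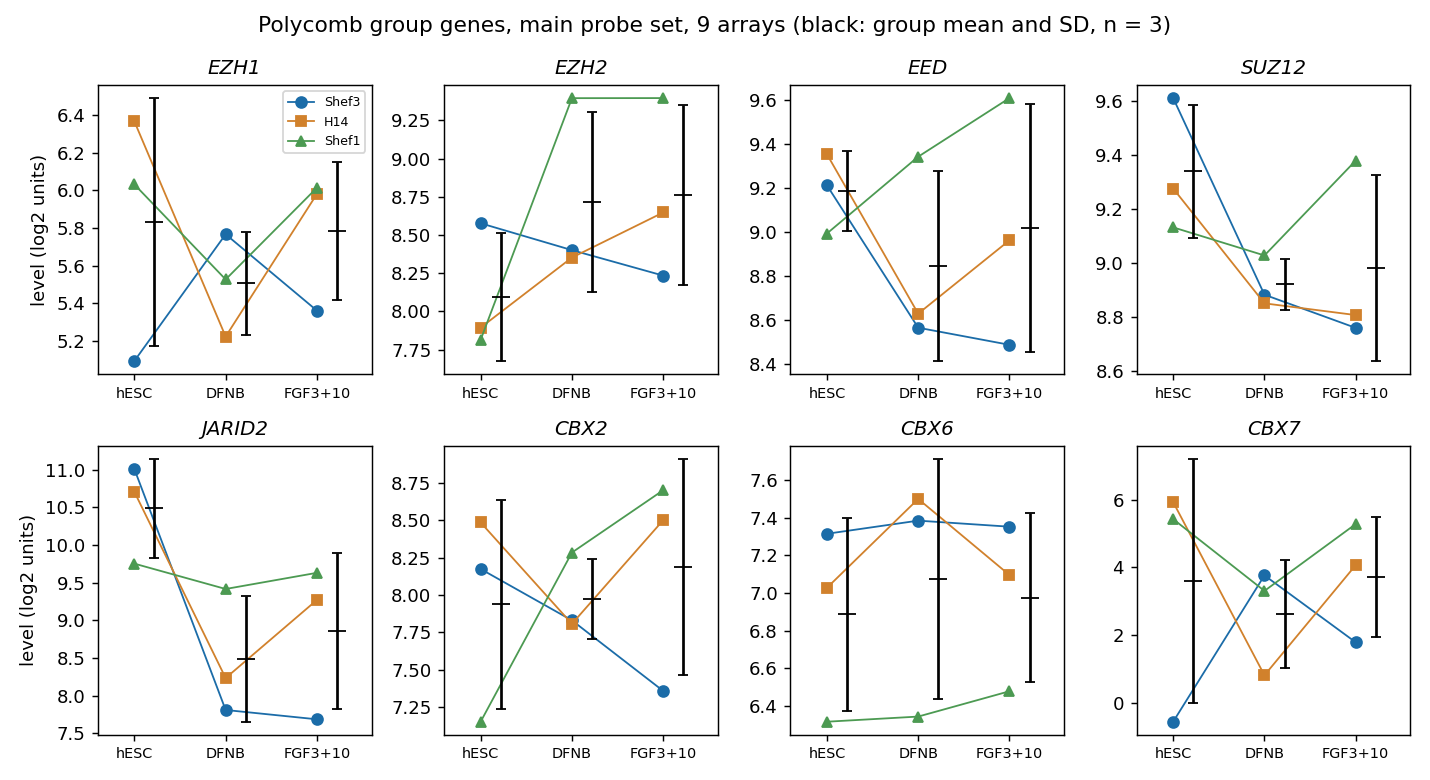
Level of the main probe set of each of the 8 genes (y axis, log2 units) in the groups hESC, DFNB and FGF3+10, with 1 point per array, lines joining the arrays of a cell line, and the group mean with its SD (n = 3) in black. JARID2 is lower on all 6 day 14 arrays than on any hESC array. EZH2, EED and CBX2 are higher at day 14 in Shef1, and CBX6 is lowest in Shef1 in every group.

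No gene of the 8 passed the test between any groups. With limma and Benjamini-Hochberg adjustment over all genes, 0 of 8 were called between DFNB and hESC, where 0.202% of all genes were called. Between FGF3+10 and hESC it was 0 of 8 against 0.177%, and for the mean of both day 14 groups against hESC 0 of 8 against 1.4%. JARID2 was the 1 member with an unadjusted p below 0.05 in each of these comparisons, where 15.8%, 12% and 18.2% of all genes had one. At such shares 1 of 8 is near the background. These comparisons share the 3 hESC arrays and are not independent of each other. The median difference over the 8 genes between day 14 and hESC was -0.22, beside -0.19 over all genes. After quantile normalisation the median over all genes was -0.07, so small differences depend on the scaling.

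**Figure D2:**
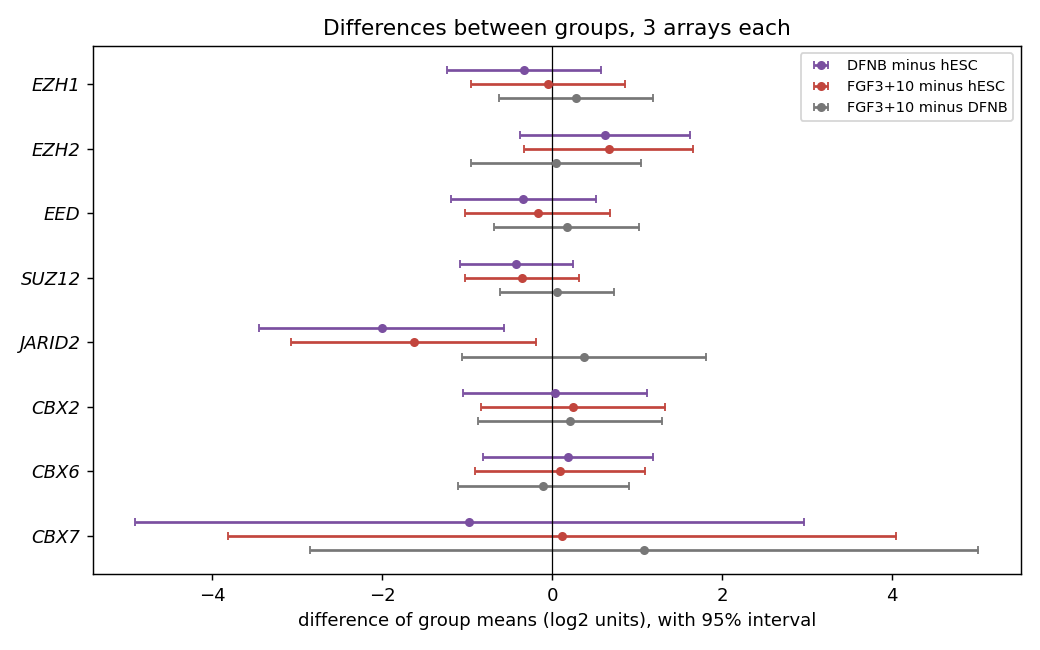
Difference of group means (x axis, log2 units) with its 95% interval for each gene (y axis) in 3 comparisons of 3 arrays each. The intervals of JARID2 in both comparisons with hESC lie below 0, from -3.44 to -0.56 and from -3.06 to -0.19, and all other intervals include 0. The fit does not pair arrays by line.

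JARID2 had the widest range of the well measured members. Its main probe set read 11.01 in Shef3, 10.70 in H14 and 9.75 in Shef1 before differentiation. In DFNB it read 7.81, 8.23 and 9.41, and with FGF3 and FGF10 7.68, 9.27 and 9.63. The groups did not overlap: every day 14 array lay below every hESC array, which held in this direction for 8.02% of all genes. The gap was narrow, since the highest day 14 value, 9.63, and the lowest hESC value, 9.75, both came from Shef1.

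The group means of JARID2 were 10.49 ± 0.66 (SD, n = 3) in hESC, 8.49 ± 0.83 in DFNB and 8.86 ± 1.03 in FGF3+10. The difference from hESC was -2.00 ± 0.63 (SE) in DFNB (adjusted p = 0.199, limma) and -1.63 ± 0.63 in FGF3+10 (adjusted p = 0.349). For both day 14 groups together it was -1.81 ± 0.55 (unadjusted p = 0.00960, adjusted p = 0.145). With the arrays weighted by their quality the differences were -2.43 in DFNB (adjusted p = 0.0283) and -1.98 for day 14 (adjusted p = 0.0367), which is past the threshold. The weights also called far more genes over the whole array, with counts in the last section. Over all alternatives the adjusted p of the day 14 difference ran from 0.0367 to 0.627. In these bulk samples fewer cells with a transcript and less of it per cell cannot be told apart.

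By line, JARID2 differed between day 14 and day 0 by -3.20 in DFNB and -3.32 in FGF3+10 in Shef3, and by -2.47 and -1.43 in H14. In Shef1 it differed by -0.34 and -0.12. Without Shef1 the day 14 difference was -2.61, and without Shef3 it was -1.09. A test of the change between lines, chosen after the values were seen, gave an F with an unadjusted p of 0.0201 and an adjusted p of 0.216 in limma. It called 0 of 19775 genes, 19.4% had an unadjusted p below 0.05, and its spread came from the different media of a line. At day 14 Shef3 was lowest and Shef1 highest in JARID2 and, without ZFP42, in the pluripotency markers, in both media. With ZFP42 included the markers in FGF3+10 stood at 8.80 in H14 and 8.69 in Shef1. The part of remaining pluripotent cells in the JARID2 values was not tested.

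A second JARID2 probe set was also lower at day 14. It read 10.72, 9.97 and 9.32 in hESC and 7.48, 7.93 and 9.01 in DFNB for Shef3, H14 and Shef1, with a day 14 difference of -1.70 ± 0.52. This probe set correlated with the main one at a Pearson r of 0.993 over the 9 arrays. The third lay below 4 on all arrays, where values are too low to compare. The genes most like JARID2 over the 9 arrays, among 11501 others with a mean of at least 4, were RPUSD4 (r = 0.996), THUMPD2 (r = 0.995) and ZNF589 (r = 0.995). These correlations describe arrays that share lines and groups.

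RefSeq places 2 starts of JARID2 on the plus strand of chromosome 6 (GRCh38.p14), and the 250 bases before each are shown because JARID2 is the member that differed most. The windows are chr6:15245819-15246068 and chr6:15248605-15248854, 5′ to 3′, with motif matches in capitals.
JARID2 start 1: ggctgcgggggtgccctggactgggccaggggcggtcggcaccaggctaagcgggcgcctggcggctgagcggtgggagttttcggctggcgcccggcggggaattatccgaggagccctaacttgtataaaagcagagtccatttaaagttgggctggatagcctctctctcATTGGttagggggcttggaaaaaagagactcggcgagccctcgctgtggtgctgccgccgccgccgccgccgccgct
JARID2 start 2: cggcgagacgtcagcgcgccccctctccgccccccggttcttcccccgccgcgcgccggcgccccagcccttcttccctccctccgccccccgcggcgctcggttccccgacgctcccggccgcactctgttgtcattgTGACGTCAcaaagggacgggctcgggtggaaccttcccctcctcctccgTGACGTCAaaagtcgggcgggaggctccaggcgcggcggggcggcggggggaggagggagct
They were searched on both strands for 5 motifs, picked with the sequences in view: the CCAAT box (CCAAT), the cyclic AMP response element or CRE (TGACGTCA), E2F sites (TTTCCCGC, TTTCGCGC, TTTGCCGC or TTTGGCGC), the octamer (ATGCAAAT) and the NRF1 site. The first window held 1 CCAAT box on the reverse strand. The second held 2 CREs, starting 111 and 62 bases before the start, where 0.0541% of 35116 windows of this length held 2 or more and 1.65% held any. The cut of 2 was taken from the count seen here, so its share is a description and no test. The octamer, which pluripotency factors of the POU family bind, was in neither window, and 1.63% of all windows held it. The array does not show which start was used.

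**Figure D3:**
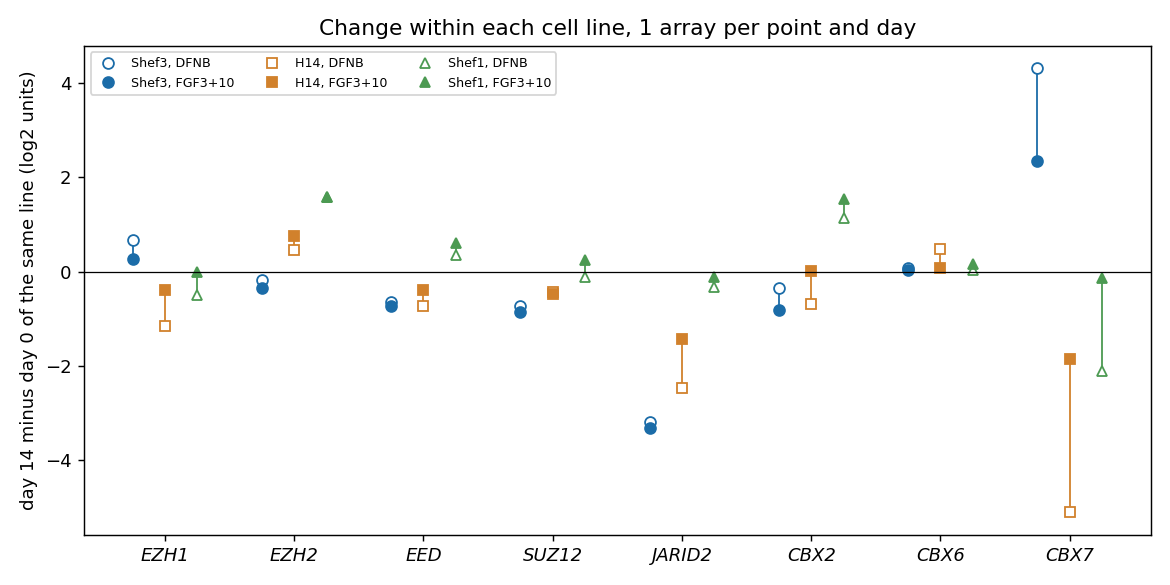
Difference between day 14 and day 0 within each cell line (y axis, log2 units) for the 8 genes, with open symbols for DFNB and filled symbols for FGF3+10, each from 1 array against the hESC array of its line. JARID2 lies at -3.20 and -3.32 in Shef3 but at -0.34 and -0.12 in Shef1. EZH2, EED and CBX2 lie above 0 in Shef1 and below 0 in Shef3.

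EZH2, the main catalytic subunit in dividing cells, had 1 probe set. It read 8.58, 7.89 and 7.81 in hESC for Shef3, H14 and Shef1, then 8.40, 8.35 and 9.39 in DFNB and 8.23, 8.65 and 9.40 in FGF3+10. The Shef1 day 14 arrays were the highest of all 9, and the groups overlapped because hESC Shef3 lay above 3 of the day 14 arrays. The means were 8.10 ± 0.42 (SD, n = 3) in hESC, 8.72 ± 0.59 in DFNB and 8.76 ± 0.59 in FGF3+10. The day 14 difference was 0.64 ± 0.38 (SE; limma adjusted p = 0.406), and 0.81 after quantile normalisation (adjusted p = 0.269). Without Shef1 it was 0.17.

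Within lines EZH2 differed by 1.58 in both media in Shef1, by 0.46 in DFNB and 0.75 in FGF3+10 in H14, and by -0.18 and -0.34 in Shef3. The change in Shef1 exceeded that in Shef3, the largest difference of any line pair, by 1.84 ± 0.35 (SE). For this pair alone limma gave an unadjusted p of 0.00404 and an adjusted p of 0.123. The F over all lines, the test given for JARID2, had an unadjusted p of 0.0109 and an adjusted p of 0.203. In that F test 19.4% of all genes had an unadjusted p below 0.05. Both tests were chosen after the values were seen, and the pair was picked as the largest. Their spread came from the different media of a line and each change from 1 hESC array. They therefore do not measure whether a line difference would recur. The mean level of 21 proliferation genes, given here because EZH2 is known to follow the cell cycle, was 8.93 in hESC Shef1 and 9.15 and 9.35 in its day 14 arrays. In Shef3 it was 9.44 at day 0 and 8.56 and 8.20 at day 14, and in H14 9.47, 8.62 and 9.23. The part of proliferation in the EZH2 values was not tested. The genes most like EZH2 were USP33 (r = 0.971), METAP1D (r = 0.970) and PBRM1 (r = 0.959).

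The 250 bases before the first EZH2 start in RefSeq lie on the minus strand at chr7:148884292-148884541 (GRCh38.p14). They are shown because EZH2 differed in opposite directions between lines, which EZH1, EED, CBX2 and CBX7 also did. Capitals mark CCAAT boxes on either strand.
EZH2 start 1: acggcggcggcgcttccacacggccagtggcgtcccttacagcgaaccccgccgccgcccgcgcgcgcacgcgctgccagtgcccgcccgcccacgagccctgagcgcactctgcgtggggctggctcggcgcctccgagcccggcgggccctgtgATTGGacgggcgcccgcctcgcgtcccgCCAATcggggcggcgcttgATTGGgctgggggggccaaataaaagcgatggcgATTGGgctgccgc
This window held 4 CCAAT boxes, starting 94, 66, 47 and 13 bases before the start, against 0.874% of all windows with 4 or more and 32% with any. It held none of the other motifs. The window before the second EZH2 start held none of the 5. The cut of 4 was taken from the count seen here, so its share is a description and no test. CCAAT boxes also lay in windows of EED, SUZ12, JARID2 and CBX7, and E2F sites in those of EZH1 and SUZ12. In all 9 windows of 7 members were searched, and 2.79% of all windows held an E2F site. CCAAT boxes are bound by NF-Y, a general activator of promoters, and a match of letters does not show binding.

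EZH1, the catalytic subunit that is also present in cells that no longer divide, had 5 probe sets. The main one read 5.09, 6.37 and 6.03 in hESC for Shef3, H14 and Shef1, 5.77, 5.22 and 5.53 in DFNB, and 5.36, 5.98 and 6.01 in FGF3+10. All 6 day 14 values lay within the range of the hESC values. Means were 5.83 ± 0.66, 5.50 ± 0.27 and 5.78 ± 0.37 (SD, n = 3), and the day 14 difference was -0.19 ± 0.34 (limma adjusted p = 0.814), with a 95% interval from -0.97 to 0.60. Other probe sets of EZH1 had day 14 differences from -1.01 to 0.52, and 2 of them lay below 4 on all arrays.

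EED, which binds the methyl mark and activates the enzyme, read 9.21, 9.35 and 8.99 in hESC for Shef3, H14 and Shef1. It read 8.57, 8.63 and 9.34 in DFNB and 8.49, 8.96 and 9.61 in FGF3+10. Shef1 had the lowest of the hESC values and the highest at day 14. The change within lines was -0.65 and -0.72 in Shef3, -0.72 and -0.39 in H14, and 0.35 and 0.61 in Shef1, in DFNB and FGF3+10. The group difference between FGF3+10 and hESC was -0.17 ± 0.37 (SE; limma adjusted p = 0.893), and 0.06 after quantile normalisation, so its direction depends on the scaling. The other EED probe set lay below 4 on all arrays.

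SUZ12, which holds the PRC2 core together, read 9.61, 9.28 and 9.13 in hESC for Shef3, H14 and Shef1, and 8.88, 8.85 and 9.03 in DFNB. With FGF3 and FGF10 it read 8.76, 8.81 and 9.38. In DFNB every array lay below every hESC array, which held in this direction for 14.3% of all genes, while Shef1 in FGF3+10 lay among the hESC values. The means were 9.34 ± 0.25 in hESC, 8.92 ± 0.09 in DFNB and 8.98 ± 0.34 in FGF3+10 (SD, n = 3). The difference was -0.42 ± 0.29 in DFNB (SE; limma adjusted p = 0.513), and -0.21 after quantile normalisation. Its other 2 probe sets lay below 4 on all arrays. Over the 9 arrays JARID2 correlated with SUZ12 at r = 0.854 and with EED at r = 0.797, and EED with SUZ12 at r = 0.749. The catalytic subunits varied less with these genes. With JARID2, SUZ12 and EED, EZH2 had an r of 0.019, 0.156 and 0.494, and EZH1 of 0.267, 0.057 and 0.403. The genes most like EED were SNW1 (r = 0.990), SFMBT1 (r = 0.989) and ZFP64 (r = 0.989), and those most like SUZ12 were KDM2A (r = 0.978), TIGD7 (r = 0.958) and THAP6 (r = 0.958). SFMBT1 is itself related to a Polycomb protein of flies, and KDM2A is a histone demethylase.

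CBX2, a PRC1 reader able to compact chromatin, read 8.17, 8.49 and 7.15 in hESC for Shef3, H14 and Shef1. It read 7.83, 7.81 and 8.28 in DFNB and 7.36, 8.50 and 8.70 in FGF3+10. Shef1 went from the lowest of all 9 arrays at day 0 to the highest in FGF3+10, while Shef3 was lower in both media. Within lines the change was 1.13 and 1.55 in Shef1, -0.34 and -0.82 in Shef3, and -0.68 and 0.02 in H14, in DFNB and FGF3+10. The change in Shef1 exceeded that in Shef3, again the largest difference of any line pair, by 1.92 ± 0.61 (SE; unadjusted p = 0.0279, adjusted p = 0.171 in limma). The F over all lines had an unadjusted p of 0.0531 and an adjusted p of 0.261 in limma. The limits of these tests given for EZH2 hold here too. The group means, 7.94 ± 0.70, 7.97 ± 0.27 and 8.19 ± 0.73 (SD, n = 3) in hESC, DFNB and FGF3+10, differed by less than their spread.

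The genes most like CBX2 were MDC1 (r = 0.966), MCM2 (r = 0.964) and PRTG (r = 0.960). MCM2, a subunit of the replication helicase, is in the proliferation list above. Of the other 3 CBX2 probe sets, 1 lay between 4.42 and 5.65 and correlated with the main one at only 0.352, with a change in Shef1 of the opposite direction: it read 5.33 in hESC and 4.87 and 5.11 at day 14. The remaining 2 lay below 4 on all arrays. The higher CBX2 values in Shef1 at day 14 thus rest on the main probe set.

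CBX6, another PRC1 reader, had the highest F of the members between lines, although the noisier line means of CBX7 lay farther apart. It read 7.31, 7.03 and 6.32 in hESC for Shef3, H14 and Shef1, 7.38, 7.50 and 6.34 in DFNB, and 7.35, 7.10 and 6.48 in FGF3+10. Shef1 was the lowest in every group, and its 3 arrays lay below all 6 arrays of the other lines. Shef3 averaged 7.35 over the groups, H14 7.21 and Shef1 6.38. The moderated F between lines was 9.34 (limma, unadjusted p = 0.0124, adjusted p = 0.146). In that test 0 of 8 members were called, against 0.46% of all genes, and 1 of 8 had an unadjusted p below 0.05, against 20.3%. With array weights the adjusted p was 0.0254, but the weights also called far more genes over the whole array, with counts in the last section. The estimate of those weights stopped before convergence.

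Shef1 also stood apart in the spike-ins, the ACTB signal and the upper quartile given above, though not in the GAPDH signal, and their part in the CBX6 values was not tested. Within lines CBX6 differed between day 14 and day 0 by 0.03 to 0.47 in the 3 lines and both media. The second CBX6 probe set read 2.83, 4.85 and 2.08 in hESC for Shef3, H14 and Shef1, and 5.34, 4.66 and 3.85 in DFNB. In FGF3+10 it read 5.20, 4.14 and 4.75, so Shef1 was not the lowest there. The genes most like CBX6 were CLPTM1 (r = 0.986), ARFGAP1 (r = 0.984) and AGO3 (r = 0.983).

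CBX7, the reader known to predominate in pluripotent cells, had 1 probe set, which was the noisiest of the main ones. It read -0.56, 5.92 and 5.42 in hESC for Shef3, H14 and Shef1, 3.76, 0.81 and 3.30 in DFNB, and 1.78, 4.06 and 5.28 in FGF3+10. Only 4 of 9 arrays reached 4, and the hESC group held both the lowest and the highest value. The pooled SD within groups was 2.50, against a median of 0.617 over all genes. Within lines the change had opposite signs, at 4.32 and 2.35 in Shef3, -5.11 and -1.86 in H14, and -2.12 and -0.14 in Shef1. The day 14 difference was -0.43 ± 1.49 (SE; limma adjusted p = 0.909), with a 95% interval from -3.83 to 2.97, which spans large differences in both directions.

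CBX7 and EZH1 varied together over the 9 arrays, with r = 0.964 between their main probe sets, the highest of all pairs of members. Only 4 of the 9 CBX7 values reached 4, so this r and the order of arrays rest largely on values too low to compare. Both genes were lowest in hESC Shef3 and highest in hESC H14, and both were higher in FGF3+10 than in DFNB in H14 and Shef1 and lower in Shef3. With the other EZH1 probe sets CBX7 correlated at 0.632, 0.507, 0.379 and 0.0463. The genes most like EZH1 among those with a mean of at least 4 were AFDN-DT (r = 0.966), C12orf76 (r = 0.963) and FAXDC2 (r = 0.956). Those most like CBX7 were EIF3J-DT (r = 0.975), OSGEPL1 (r = 0.972) and ANKDD1A (r = 0.966).

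**Figure D4:**
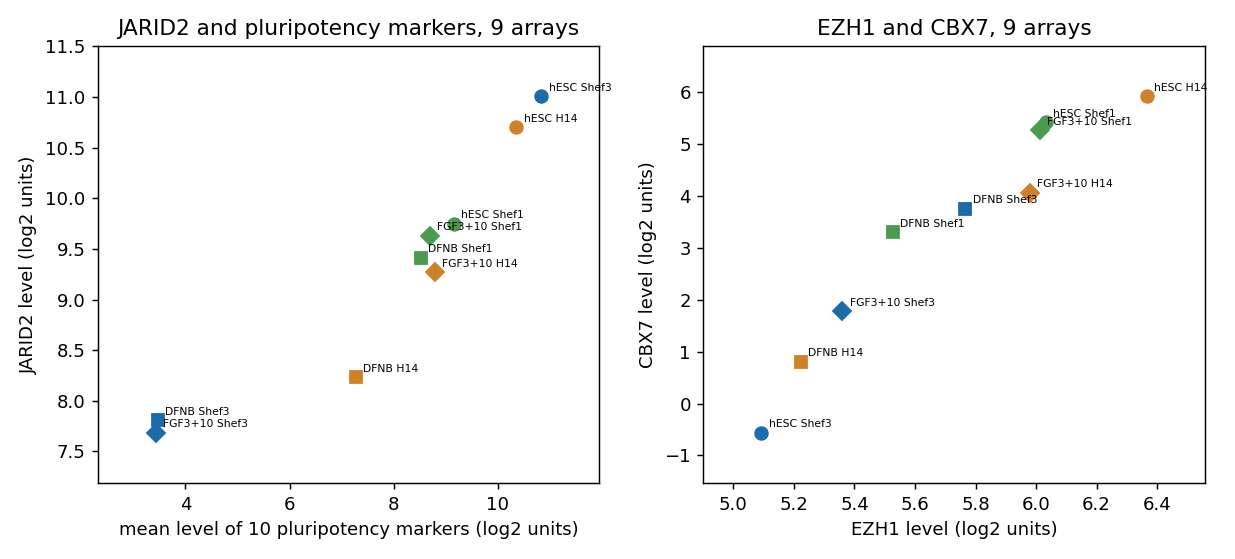
Left, JARID2 level (y axis) against the mean level of 10 pluripotency markers (x axis), and right, CBX7 level (y axis) against EZH1 level (x axis), all in log2 units, with 1 labelled point per array, coloured by cell line and shaped by group. In the left panel the Shef3 day 14 arrays lie lowest on both axes, at 3.47 and 3.43 for the markers (ZFP42 and values below 4 included), and in the right panel hESC Shef3 lies lowest and hESC H14 highest on both.

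The comparison of FGF3+10 with DFNB asks what the added FGFs did to these genes at day 14. In limma 0 of 8 members were called, against 0% of all genes, and none of the 8 had an unadjusted p below 0.05, against 1.52% of all genes. The differences FGF3+10 minus DFNB were 0.38 ± 0.63 (SE) for JARID2, with a 95% interval from -1.06 to 1.81, and 0.04 ± 0.44 for EZH2, from -0.96 to 1.04. They were 0.21 ± 0.48 for CBX2, from -0.87 to 1.30, and -0.10 ± 0.44 for CBX6, from -1.10 to 0.90. For CBX7 the interval ran from -2.84 to 5.01. These intervals leave out the pairing of arrays by line. Within Shef3, H14 and Shef1 the difference was -0.17, 0.29 and 0.00057 for EZH2 and -0.03, -0.40 and 0.13 for CBX6. In H14, JARID2 was higher with the FGFs by 1.04, while it differed by -0.12 in Shef3 and 0.21 in Shef1. On the same H14 arrays, with the FGFs against DFNB alone, the mean marker level was 8.80 against 7.28 for pluripotency, 6.77 against 5.23 for neural progenitors and 9.23 against 8.62 for proliferation. It was 6.24 against 7.82 for neuronal, 9.38 against 10.51 for mesenchymal, 8.88 against 9.78 for epithelial and 4.43 against 4.77 for endoderm markers. Their part in the JARID2 difference was not tested.

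The partners of these genes were followed in lists, whose counts and medians between day 14 and hESC stand beside 1.4% of all genes called and a median of -0.19 over all genes. Among 9 further PRC2 genes 0 passed between day 14 and hESC. Their median difference was -0.32, 7 were lower and 2 higher, and the largest differences were 1.28 for EPOP and -1.26 for PHF19. EPOP, an accessory subunit that links PRC2 to elongin, averaged 5.11 ± 1.21 (SD, n = 3) in hESC, 6.22 ± 0.43 in DFNB and 6.56 ± 1.00 in FGF3+10 (limma adjusted p = 0.298). Its difference rests largely on Shef1: averaged over both media it was 3.22 there, against 0.12 in Shef3 and 0.50 in H14. PHF19, a Polycomb-like protein that helps to recruit PRC2, averaged 7.34 ± 0.73, 6.17 ± 0.56 and 5.99 ± 0.89 (adjusted p = 0.225).

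Of 21 measured PRC1 genes 1 rose and none fell, with a median difference of -0.09. YAF2, a subunit of variant PRC1 complexes, rose by 1.95 on average, with means of 4.22 ± 0.58 (SD, n = 3) in hESC, 6.19 ± 0.12 in DFNB and 6.14 ± 0.52 in FGF3+10 (adjusted p = 0.0384 for day 14, limma). It read 4.88, 3.95 and 3.82 in hESC for Shef3, H14 and Shef1 and at least 5.77 on every day 14 array. In hESC, 2 of its 3 values lay below 4. PHC1, a polyhomeotic subunit abundant in stem cells, was chosen after its values were seen. It read 10.53, 10.61 and 10.32 in hESC and 7.86, 7.99 and 9.42 in DFNB for Shef3, H14 and Shef1, and 7.70, 8.77 and 9.75 in FGF3+10. Its day 14 difference was -1.90 (adjusted p = 0.111), with the smallest difference in Shef1, as for JARID2. PHC2 went the other way, by 1.02 in Shef3, 1.65 in H14 and 1.25 in Shef1. In this list 5 genes were higher and 1 lower at an unadjusted p below 0.05 in limma.

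Of 12 measured genes of the H3K27 demethylases, the trithorax group and the H2A deubiquitinase complex, 1 rose and none fell, with a median of 0.11. ASXL3, a subunit of the H2A deubiquitinase complex that removes the mark set by PRC1, rose, with means of 3.34 ± 0.59 (SD, n = 3) in hESC, 7.10 ± 0.77 in DFNB and 6.40 ± 1.02 in FGF3+10 (adjusted p = 0.0298 for day 14, limma). All 3 of its hESC values lay below 4, so the rise was at least 2.75, taken from 4 to the day 14 mean. The H3K27 demethylases KDM6A and KDM6B, named for their role after their values were seen, had differences of -0.25 and 0.66 and did not pass. The 3 HP1 genes CBX1, CBX3 and CBX5, which read another methyl mark, had differences of 0.12, -0.20 and 0.51 and did not pass.

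Of 19 developmental regulators known as Polycomb targets in pluripotent cells, 0 passed between day 14 and hESC, with 11 higher, 8 lower and a median of 0.27. The largest fitted differences were 5.82 for LHX2 (adjusted p = 0.0510, limma), whose hESC values all lay below 4, and 4.19 for PAX6 (adjusted p = 0.0604), factors of the eye field and forebrain. LHX2 averaged 2.26 ± 1.29 in hESC, 7.12 ± 2.77 in DFNB and 9.05 ± 1.17 in FGF3+10 (SD, n = 3). Of the 21 proliferation genes 0 passed, 17 were lower and the median was -0.50, with -1.14 for BUB1 and -0.84 for CCNA2. Of the 10 pluripotency markers 0 passed and all were lower, with a median of -2.50. At an unadjusted p below 0.05 the counts were 3 of the 9 PRC2 genes, 6 of the 21 PRC1 genes, 2 of 12, 0 of 3, 5 of 19, 0 of 21 and 4 of 10 in the order given, against 18.2% of all genes. Of the markers of other cells, SIX6 and SIX3 rose among 11 of neural progenitors and APOA1 fell by 3.39 among 7 of endoderm, while 0 of 9 neuronal, 10 mesenchymal and 7 epithelial markers passed. All hESC values of SIX6 and SIX3 lay below 4, and from 4 to the day 14 mean the rise was at least 1.22 and 3.22. At an unadjusted p below 0.05 there were 6 of 11 neural progenitor, 7 of 7 endoderm, 3 of 9 neuronal, 2 of 10 mesenchymal and 2 of 7 epithelial markers. The largest fitted differences among pluripotency markers were -8.18 for NANOG and -6.51 for PRDM14. Both rest largely on Shef3 readings below 4, which are too low to compare. The DFNB and FGF3+10 arrays of that line read -10.17 and -7.62 for NANOG and -5.75 and -4.18 for PRDM14. Averaged over both media, NANOG differed from day 0 by -20.0 in that line, against -3.19 for H14 and -1.35 for Shef1. For PRDM14 the same differences were -14.20, -3.48 and -1.84. Among neuronal markers the largest differences were 3.41 for ISL1 and 3.23 for DCX, and among mesenchymal markers 2.17 for DCN and 1.69 for FBN1. Among epithelial markers they were 4.18 for KRT5, which averaged below 4 in every group, and -1.38 for EPCAM. The part of such cells in the Polycomb values was not tested.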

How the data were processed

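Gene expression was measured on 9 arrays of total RNA (200 ng each, amplified by the 3' IVT method per the labels' protocols), 1 per cell line in each of the groups hESC, DFNB and FGF3+10. The deposited values are probe set levels on a log scale, taken as log2, which the authors set to a common median of 3.20. Values ranged from -14.4 to 13.3. The software is not given in the sources used here, nor are background correction and probe summary. For arrays, precision is limited by their number.

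Symbols came from the platform annotation, updated through Entrez identifiers (41037 of 41091 single-symbol probe sets matched). Control probe sets (62) and those with several symbols (1801) were left out. The group comparisons used limma 3.58.1 (lmFit, eBayes; R 4.3.3) over 19775 genes, 1 probe set per gene, with group means and 1 shared spread. P-values were adjusted by Benjamini-Hochberg over all genes and called below 0.05. Single probe sets were tested in the same way over all probe sets other than controls, and lines with group and line in the model. The fits were tested on simulated data. Alternatives were the line as replicate block, quantile normalisation, no genes averaging below 4, values below 4 set to 4, the mean of probe sets, array weights, and leaving out lines or arrays.

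Members and lists were chosen with earlier results of these data known. The text names all members, up to 4 called genes of each list or else its 2 largest differences, and the 3 genes most like each member. PHC1, PHC2, KDM6A, KDM6B and CBX1 fall outside this rule, as do the ZFP42 values. The marker levels without ZFP42 and with a floor at 4 were added after the data were seen. The same lines recur in every group and so pair the arrays. Within a line, deviations from group means had correlations of 0.0861 to 0.338 between DFNB and hESC, 0.181 to 0.283 between FGF3+10 and hESC, and 0.331 to 0.713 between the day 14 groups. Promoter windows are from RefSeq (GRCh38.p14), matched by symbol for 7 members.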

Additional observations from a re-analysis of the deposited data

How the results depend on the processing

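0 of the 8 genes were called in each comparison under each alternative except array weights, which called 1 each between DFNB and hESC (JARID2), between day 14 and hESC (JARID2) and between lines (CBX6). Over all 19775 genes the weights called 1612, 1408 and 4475 in these comparisons, so calls were common under them. The line as replicate block called 0 of 8, with an adjusted p for JARID2 of 0.158 in DFNB, 0.273 in FGF3+10 and 0.123 at day 14 (limma). The block changed no call of the 8 genes, and raised the count over all genes from 40 to 189 in DFNB, from 35 to 115 in FGF3+10 and from 277 to 612 at day 14. Those counts were 183, 123 and 479 with values below 4 set to 4, 122, 66 and 322 without dim genes, and 1612, 284 and 1408 with array weights. Without single lines or arrays they ran from 0 to 72, 0 to 32 and 1 to 238. Between lines 91 genes were called, against 468 with the floor at 4, 491 without dim genes, 4475 with array weights, 58 after quantile normalisation, 217 with the mean of probe sets, and 4 to 55 without lines or arrays. Between FGF3+10 and DFNB 0 genes were called under each of these by limma.

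The difference of JARID2 from hESC kept its sign throughout, as did those of SUZ12 and EZH2. Other signs turned, none of them called, and the cause was not tested. With the mean of probe sets CBX2 differed by -0.53 in DFNB, -0.052 in FGF3+10 and -0.29 at day 14, EED by 0.080 in FGF3+10, and SUZ12 by -0.0081 between FGF3+10 and DFNB. With array weights CBX2 differed by -0.31 in DFNB and -0.080 at day 14, and CBX7 by -0.82 in FGF3+10. With the floor at 4 CBX7 differed by -0.67 in FGF3+10, and after quantile normalisation EED differed there by 0.056. Without single lines or arrays the difference between DFNB and hESC ran from -0.82 to 0.084 for EZH1, -0.51 to 0.39 for CBX2, -0.10 to 0.56 for CBX6 and -3.62 to 1.10 for CBX7. For FGF3+10 and hESC it ran from -0.41 to 0.22 for EZH1, -0.56 to 0.11 for EED, -0.40 to 0.78 for CBX2, -0.20 to 0.34 for CBX6 and -1.96 to 1.28 for CBX7. For FGF3+10 and DFNB it ran from -0.28 to 0.38 for EZH2, -0.12 to 0.44 for EED, -0.14 to 0.17 for SUZ12, -0.0081 to 0.96 for JARID2, -0.044 to 0.63 for CBX2, -0.47 to 0.15 for CBX6 and -0.0013 to 2.62 for CBX7. At day 14 it ran from -0.55 to 0.10 for EZH1, -0.46 to 0.51 for CBX2, -0.15 to 0.35 for CBX6 and -2.51 to 1.10 for CBX7. Of the 8 main probe sets only that of CBX7 fell below 4 on some arrays, which limits it most.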
